A study of Mus musculus with 43 samples.

Results

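White adipose tissue of mice that carried both interventions of the study, loss of insulin receptor substrate 1 and dietary restriction, was compared with that of mice that carried neither. The first group, KO_DR, held global Irs1-/- females kept at 30% dietary restriction for 12 months (3 libraries), and the second, WT_AL, held Irs1+/+ females with free access to food (2 libraries). Genotype and diet changed together between these groups, so a difference between them cannot be assigned to either alone. All mice were 15 months old, and restriction began at 10 weeks of age by a stepwise cut in food. The gene was inactive in every tissue of the knockout by design, not in fat alone. The tissue was inguinal white fat, the subcutaneous pad of the groin, and polyadenylated RNA was sequenced. The whole series covers 4 tissues and 43 libraries. For fat it also holds Irs1-/- mice with free access to food (KO_AL, 3 libraries) and wild-type mice under restriction (WT_DR, 2 libraries), whose values are given beside those of the main pair.

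Of the 42349 entries in the table, 15543 met the rule for the comparison, which asked for a status of OK and at least 1 FPKM in KO_DR or WT_AL. FPKM counts fragments relative to transcript length and to library size. The table gives a single pooled FPKM per group with a 95% interval, and no value for any library. Among fat entries at 1 FPKM or more, the standard deviation read from the interval had a median of 32.3% of the FPKM in WT_AL, 36.1% in KO_AL, 62.3% in WT_DR and 46.3% in KO_DR. At the minimum itself, Intu had 1 FPKM in KO_DR and was kept, while Tagln3 had 0.99999 in WT_AL and was not.

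White fat stores triglyceride in adipocytes and makes part of it there from glucose, through acetyl-CoA, fatty acid synthesis, elongation and desaturation. Insulin promotes this synthesis and restrains the release of fat, and IRS1 is a main adaptor that carries the signal from the insulin receptor to phosphatidylinositol 3-kinase in adipocytes. Around the adipocytes lie progenitor cells, a collagen-rich matrix, vessels and resident macrophages, and the inguinal pad of female mice also encloses mammary ducts and a lymph node.

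Several genes that build fatty acids and sterols were higher in KO_DR fat than in WT_AL fat, and several macrophage and matrix genes were lower. Genes that belong to other tissues differed as well: skeletal muscle, epithelial and ovarian genes were higher and liver genes lower. Of 15271 entries above 0 in both groups, 192 differed in a two-sided Wald test on the log2 ratio of the pooled FPKM at a false discovery rate of 10%, which is 1.26% of those tested. They comprised 112 entries higher in KO_DR (0.733% of those tested) and 80 lower (0.524%). Genes said below to be called, to have passed, to have risen or to have fallen met this threshold. At an unadjusted p below 0.05, 2.97% of entries were higher and 2.89% lower. Over all entries the median log2 difference was -0.04, with 48.0% higher and 52.0% lower. The test takes the deposited intervals as normal. With a t distribution on 3 degrees of freedom in its place 2 entries passed, and with the standard deviations divided by the square root of the number of libraries 1418 passed. The calls below therefore rest on how the deposited intervals are read, and no library can be left out to check them.

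**Figure D1:**
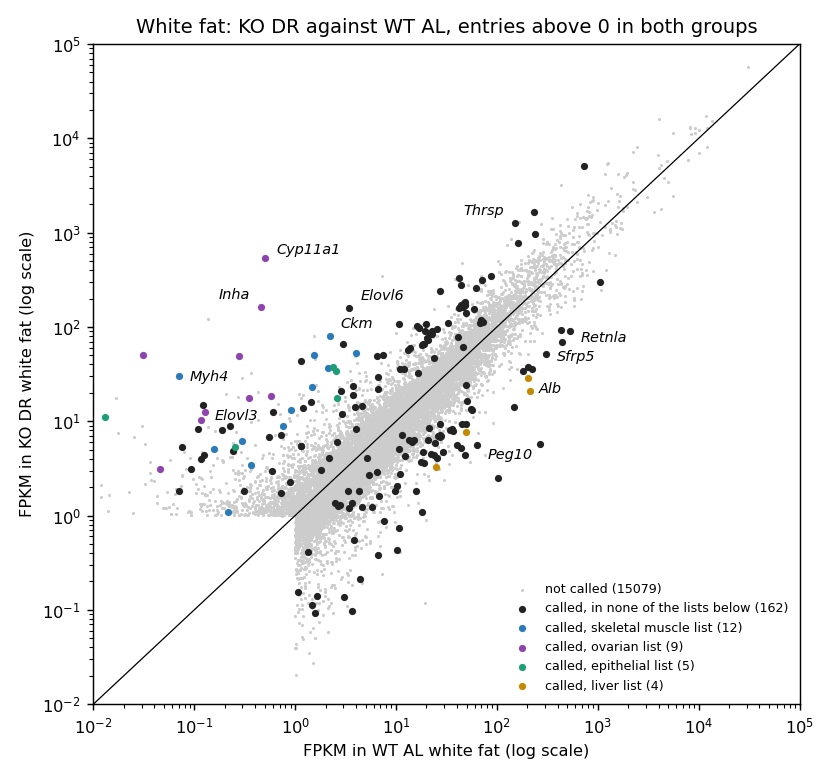
Pooled FPKM in KO_DR white fat (y axis, log scale) against WT_AL white fat (x axis, log scale) for the 15271 entries above 0 in both groups. Grey points did not pass the test, coloured points are called members of the skeletal muscle (12), ovarian (9), epithelial (5) and liver (4) lists and the other 162 called entries, with muscle, ovarian and epithelial genes above the line of equal values and liver genes below it.

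The promoters of Elovl6 and Thrsp, the called genes of fatty acid synthesis, are shown first. Each runs from 250 bases before the start annotated by RefSeq to 50 after it, is printed in the direction of transcription, and comes from RefSeq on GRCm38.p6. Capitals mark the letters CCAAT, read on either strand, the core of the site that the factor NF-Y binds in many lipid synthesis promoters.
Elovl6, chr3:129532136-129532435, plus strand: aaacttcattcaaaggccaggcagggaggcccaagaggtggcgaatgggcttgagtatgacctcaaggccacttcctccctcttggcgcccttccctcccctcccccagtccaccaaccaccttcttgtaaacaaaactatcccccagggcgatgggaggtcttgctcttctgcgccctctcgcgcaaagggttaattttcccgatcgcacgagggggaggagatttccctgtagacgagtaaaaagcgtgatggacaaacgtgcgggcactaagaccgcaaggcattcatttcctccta
Thrsp, chr7:97417501-97417800, minus strand: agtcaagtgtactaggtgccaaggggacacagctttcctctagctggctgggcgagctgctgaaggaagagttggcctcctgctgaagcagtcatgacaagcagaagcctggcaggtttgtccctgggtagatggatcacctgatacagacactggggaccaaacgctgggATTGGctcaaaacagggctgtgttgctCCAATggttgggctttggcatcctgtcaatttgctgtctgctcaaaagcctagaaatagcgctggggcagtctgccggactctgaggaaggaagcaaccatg
The Thrsp window held CCAAT at 2 places, starting 52 bases before the RefSeq start on the strand of the gene and 79 bases before it on the other strand, and the Elovl6 window held none. The gene extents printed here are those of GENCODE, whose start lies 180 bases upstream of that of RefSeq for Thrsp, so that both matches fall inside the GENCODE gene, and 31 bases upstream for Elovl6. The 32851 promoter windows searched did not cover every chromosome, and 37.4% of them held these letters. The other letters searched on both strands were in neither window. These were CACGTG, the E-box (in 7.15% of the windows searched), TATAAA, the TATA box (in 13.6%), and TCACCCCAC, a sterol response element (in 0.551%). The match of a motif describes the DNA and does not show binding.

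Elovl6, the elongase that turns palmitate into stearate, lies on chromosome 3, 129532355-129638495, plus strand (GRCm38). Its pooled value was 3.44 FPKM in WT_AL (95% interval 2.02 to 4.85), 58.9 in KO_AL, 126 in WT_DR and 160.3 in KO_DR (interval 0 to 365). The interval in KO_DR reached 0 and so overlapped that of WT_AL, although WT_AL was the lowest of the 4 groups by a wide margin. KO_DR was 46.7-fold above WT_AL (log2 difference 5.54 ± 0.97, where the value after ± is the standard error throughout), and it passed the test. The diet effect differed between genotypes by -3.75 ± 1.28 on the log2 scale, which was not called.

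Thrsp, also called Spot 14, a nuclear protein that accompanies lipogenesis, lies on chromosome 7, 97412938-97417730, minus strand. It had 152 FPKM in WT_AL (interval 108 to 196), 523 in KO_AL, 858 in WT_DR and 1276 in KO_DR (interval 0 to 2590.2), a log2 difference of 3.07 ± 0.77. As with Elovl6, WT_AL was the lowest and KO_DR the highest group, and the intervals of these groups overlapped.

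All 26 members of the fatty acid and triglyceride synthesis list passed the filter on low values. Of these, 2 rose (Elovl6 and Thrsp), 0 fell, and 25 had a higher value in KO_DR. The median log2 difference was 1.65, against -0.04 over all entries. Acss2, which makes acetyl-CoA from acetate, had 15.9 and 83.4 FPKM in WT_AL and KO_DR (log2 2.39 ± 0.82) and did not pass. In the same order, the desaturases Fads2 (4.66 and 14.4) and Fads1 (17.97 and 41.3), acetoacetyl-CoA synthetase Aacs (15.5 and 53.9), glycerol-3-phosphate acyltransferase Gpam (14.9 and 36.97) and malic enzyme Me1 (67.2 and 291) also did not pass. Fatty acid synthase Fasn had 429 and 3218 FPKM, but the interval in KO_DR ran from 0 to 69420, so its log2 difference was 2.91 ± 14.86. Stearoyl-CoA desaturase Scd1 had 3943 and 6599 FPKM (log2 0.74 ± 3.45). For these abundant enzymes the deposited spread was too wide for a difference of such a size to be detectable.

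**Figure D2:**
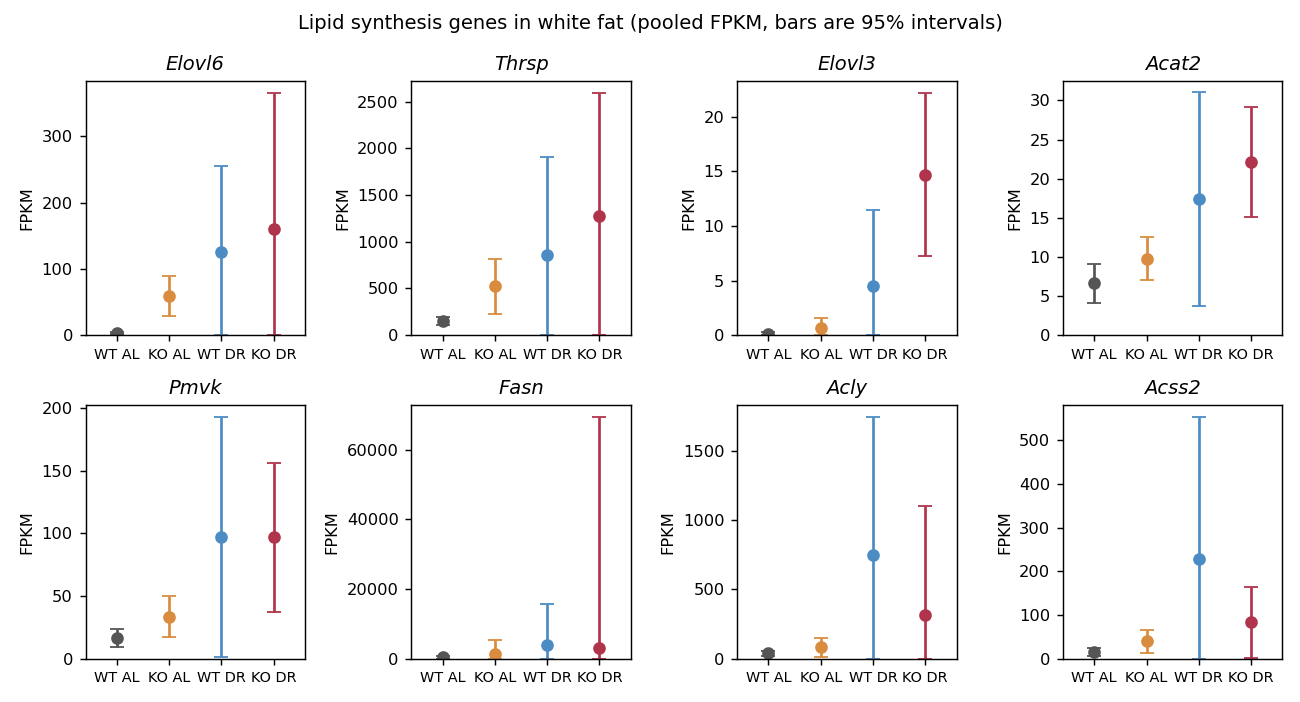
Pooled FPKM of 8 lipid synthesis genes (y axes, FPKM, linear from 0) in the 4 fat groups, with the deposited 95% intervals as bars. WT_AL is the lowest group for all 8 genes, of which Elovl6, Thrsp, Elovl3, Acat2 and Pmvk passed the test between KO_DR and WT_AL, and Fasn, Acly and Acss2 did not.

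In sterol synthesis and uptake, 23 of 24 listed genes passed the filter, 1 rose and 0 fell. A higher value in KO_DR was seen for 18, and the median log2 difference was 1.03. The called gene was Pmvk, phosphomevalonate kinase of the mevalonate pathway, at 16.7 FPKM in WT_AL (interval 9.55 to 23.9), 33.7 in KO_AL, 97.1 in WT_DR and 96.9 in KO_DR (interval 37.7 to 156), a log2 difference of 2.54 ± 0.54. The intervals of the compared groups did not overlap. Insig1 (16.7 and 48.97 FPKM), squalene epoxidase Sqle (2.19 and 8.97) and Msmo1 (10.99 and 56.6) did not pass. Hmgcs1, the enzyme that forms HMG-CoA, had the opposite sign, with 59 and 20.1 FPKM (log2 -1.55 ± 0.55), and did not pass. Acat2, the cytosolic acetoacetyl-CoA thiolase at the head of the pathway, was on no list and was singled out after its values were seen. It had 6.62, 9.79, 17.4 and 22.1 FPKM in WT_AL, KO_AL, WT_DR and KO_DR, with intervals of 4.12 to 9.11 in WT_AL and 15.1 to 29.1 in KO_DR, and it passed (log2 1.74 ± 0.35).

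Elovl3, an elongase of very long fatty acids known from brown fat and skin, was the called member of the brown and beige fat list, of which 17 of 25 genes passed the filter. It had 0.123 FPKM in WT_AL (interval 0 to 0.328), 0.692 in KO_AL, 4.52 in WT_DR and 14.7 in KO_DR (interval 7.26 to 22.2), a log2 difference of 6.91 ± 1.26. The ranges of the compared groups were apart. Cidea (11.5 and 32.1 FPKM) and Cox8b (31.7 and 67.1), known from brown fat, did not pass. Ebf2 (1.75 and 0.536) and the entry that joins Chkb and Cpt1b (27.4 and 18.7) had lower values in KO_DR and did not pass either. Of the 17 genes 11 were higher and 6 lower, and the median log2 difference of the list was 0.18.

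Of 25 genes of glucose uptake and glycolysis, 2 rose and 0 fell, with a median log2 difference of 0.65. Pkm, a pyruvate kinase, had 160.5, 236, 990.1 and 771 FPKM in WT_AL, KO_AL, WT_DR and KO_DR (log2 2.26 ± 0.67). Pdp2, the phosphatase that activates pyruvate dehydrogenase and so opens the way from pyruvate to acetyl-CoA, had 0.886, 1.74, 2.53 and 2.24 FPKM (log2 1.34 ± 0.25). The call of Pdp2 was lost when every standard deviation was raised to at least 20% of the FPKM. Gapdh had 69.4 and 251 FPKM (log2 1.85 ± 0.71) and, like Aldoa (842 and 2106), Ldha (423 and 1033) and Pck1 (1172 and 1138), did not pass.

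Some of the entries called higher were processed pseudogenes, gene copies whose reads can be shared with the parent gene. Of the 112 entries, 28 were pseudogenes. The share of pseudogenes among all entries tested was not counted, so this number cannot be read as an excess. Of the 28, 15 were most alike to Gapdh, at 97.01% to 100% identity. Their log2 differences lay between 1.77 and 2.12, with 1.85 for Gapdh. Gm11295 was most alike to Elovl6 (97.4% identity, log2 5.23), Gm7329 to Me1 (99.05%, log2 2.81), and Gm3571 and Gm5873 to Fdps, farnesyl diphosphate synthase (98.9% and 96.7%, log2 2.11 and 2.65, with 1.56 for Fdps, which did not pass). Other copies had values unlike those of the parent: Gm12366, Rps2-ps6 and Gm5921, most alike to the ribosomal gene Rps2, had log2 differences of 2.67, 2.98 and 3.15, with 0.55 for Rps2, which shares its entry with Snora64, and Gm12991, most alike to Rpl41, was among the entries called lower (log2 -2.11, with 1.64 for Rpl41). Neither parent passed. Such copies are not separate evidence, since the counting could split reads between a parent and its copies.

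Other genes that rose included Slc15a5, of the peptide transporter family, and Parm1, a mucin-like membrane protein. Slc15a5 had 3.005, 42.1, 50.4 and 66.5 FPKM in WT_AL, KO_AL, WT_DR and KO_DR (log2 4.47 ± 1.15). Parm1 had 1.43, 7.28, 18.5 and 16.02 FPKM in the same order (log2 3.48 ± 0.51). For both genes WT_AL stood below the other 3 groups, and the intervals of WT_AL and KO_DR did not overlap. Tmem86a, a lysoplasmalogenase that cleaves ether lipids, had a different order, with 19.8 FPKM in WT_AL (interval 17.5 to 22.1), 20.9 in KO_AL, 18.2 in WT_DR and 108 in KO_DR (interval 64.5 to 152), a log2 difference of 2.45 ± 0.30. The KO_DR value lay above the other 3, and the diet effect in knockout fat exceeded that in wild-type fat by 2.49 ± 0.41 on the log2 scale, which passed the test of the interaction. Of 15727 entries tested for the interaction, 19 passed (0.121%). Among genes singled out after their values were seen, Sorcs2, a sortilin-related receptor, had 0.187, 3.89, 5.06 and 8.03 FPKM across the groups, Sfxn1, a mitochondrial serine carrier, 12.1, 17.7, 21.4 and 36, and Ptges, a prostaglandin E synthase, 16.1, 28.1, 129 and 102. All of these passed, with log2 differences of 5.43 ± 0.99, 1.58 ± 0.27 and 2.66 ± 0.79.

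Adipocyte markers were abundant in both groups. Adiponectin (Adipoq) had 4274 and 5232 FPKM in WT_AL and KO_DR, the fatty acid carrier Fabp4 10117 and 7051, adipsin (Cfd) 4486 and 3803, and carbonic anhydrase 3 (Car3) 12120 and 8009, none of which passed. All 20 adipocyte markers passed the filter, 1 of which fell and 0 rose, and the median log2 difference was -0.22. The called member was Aqp7, the channel through which adipocytes release glycerol, with 27.3 FPKM in WT_AL (interval 16.7 to 37.8) and 9.41 in KO_DR (interval 4.53 to 14.3), a log2 difference of -1.54 ± 0.47. This call was lost when log2 ratios were centred on their median, without a minimum FPKM, and with standard deviations of at least 20% of the FPKM. Leptin (Lep) had 616, 222, 158 and 260.4 FPKM in WT_AL, KO_AL, WT_DR and KO_DR (log2 -1.24 ± 1.40) and was not called.

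Irs1 itself, on chromosome 1, 82233101-82291416, minus strand, was not lower in the knockout under restriction. It had 2.47 FPKM in WT_AL (interval 1.39 to 3.54) and 2.58 in KO_DR (interval 1.54 to 3.62), a log2 difference of 0.06 ± 0.43, and 5.37 in KO_AL and 6.56 in WT_DR. FPKM is given for the whole gene, and which stretch the allele removes was not given in the sources used here, so these values do not check the labels. All directions are therefore between the libraries labelled KO_DR and the libraries labelled WT_AL. Of the 33 genes of the insulin signalling list 31 passed the filter and 0 were called by the Wald test (1 at an unadjusted p below 0.05), with a median log2 difference of -0.31. Irs2 had 28.1 and 19.7 FPKM, the insulin receptor Insr 8.03 and 6.11, and Akt2, the main Akt of adipocytes, 93.1 and 74.9. The Wald test called 0 of 26 fatty acid oxidation genes (1 at an unadjusted p below 0.05, median 0.09). It called 0 of 77 nuclear respiratory chain subunits (3 at an unadjusted p below 0.05), of which 68 were higher with a median of 0.50. Of 68 cytosolic ribosomal proteins it called 0 (1 at an unadjusted p below 0.05), with 60 higher and a median of 0.54.

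**Figure D3:**
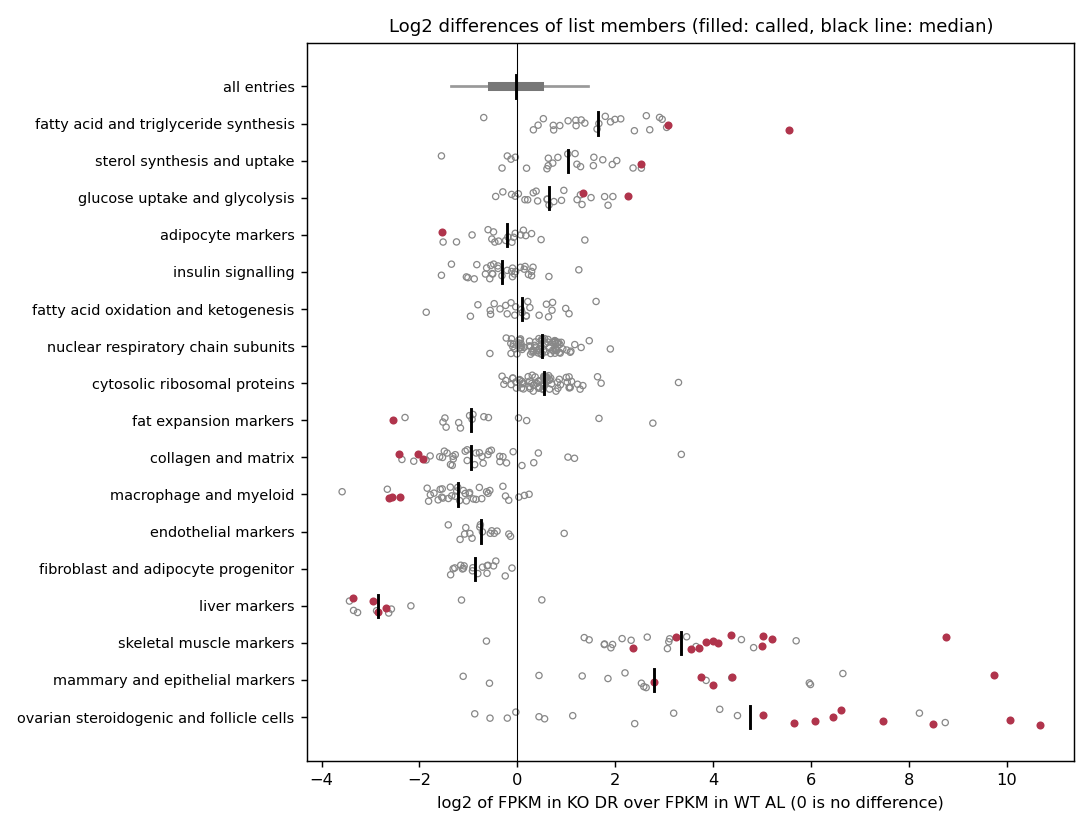
Log2 differences (x axis, KO_DR over WT_AL, 0 is no difference) of list members that passed the filter, 1 row per list, with called members as filled points, the others as open points and medians as black lines. In the top row the thick and thin bars span the 25th to 75th (-0.51 to 0.44) and 5th to 95th percentiles (-1.36 to 1.44) of all 15271 entries, and the medians of the lipid synthesis lists lie to the right of 0 and those of the macrophage and liver lists to the left.

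Several macrophage genes fell. Of 39 macrophage and myeloid genes that passed the filter, 3 were called lower and 0 higher, 36 had a lower value, and the median log2 difference was -1.22. Retnla, a secreted protein of alternatively activated macrophages, had 529 FPKM in WT_AL (interval 307 to 751), 126 in KO_AL, 194 in WT_DR and 90.2 in KO_DR (interval 35.04 to 145), 5.87-fold higher in WT_AL than in KO_DR (log2 -2.55 ± 0.53). F13a1, the A subunit of coagulation factor XIII, which tissue macrophages express, had 29.1, 9.81, 9.87 and 4.71 FPKM in the same order (log2 -2.63 ± 0.50). The chemokine Ccl6 had 179.6, 52.6, 27.01 and 34.02 FPKM (log2 -2.40 ± 0.58). For each of these genes WT_AL was the highest of the 4 groups, and its interval did not overlap that of KO_DR. General macrophage genes had values in the same direction without passing: lysozyme Lyz2 (474 and 183 FPKM), cathepsin S Ctss (66.2 and 21.6), Cd68 (49.98 and 18.8), Emr1, which encodes the antigen F4/80 (6.83 and 2.098), and the complement genes C1qc (228 and 133) and C1qb (198 and 110.2). In bulk tissue, fewer cells of a type and less RNA per cell cannot be told apart.

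In the collagen and matrix list 38 genes passed the filter, 3 fell and 0 rose, 32 had a lower value, and the median log2 difference was -0.95. Pcolce2, which enhances the trimming of procollagen, had 23.6 FPKM in WT_AL (interval 14.3 to 32.97) and 4.42 in KO_DR (interval 1.59 to 7.24), a log2 difference of -2.42 ± 0.54. Lysyl oxidase (Lox), the enzyme that cross-links collagen and elastin, had 54.8 and 13.4 FPKM (log2 -2.03 ± 0.57), and fibulin 5 (Fbln5), an elastic fibre protein, 27.5 and 7.19 (log2 -1.94 ± 0.54). WT_AL was the highest of the 4 groups for each. Sparc (1495 and 580 FPKM), Prelp (676 and 197) and Dcn (405 and 511) were not called. Adamts5, a protease that cleaves aggrecan and was singled out after its values were seen, fell from 48.9 to 9.3 FPKM (log2 -2.39 ± 0.55). All 18 fibroblast and progenitor markers that passed the filter had lower values, with a median of -0.86, as did 15 of 16 endothelial markers, with a median of -0.73. The Wald test called 0 markers in both lists (at an unadjusted p below 0.05, 2 progenitor markers were lower, the endothelial marker Sox18 was lower and Fabp5 higher).

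**Figure D4:**
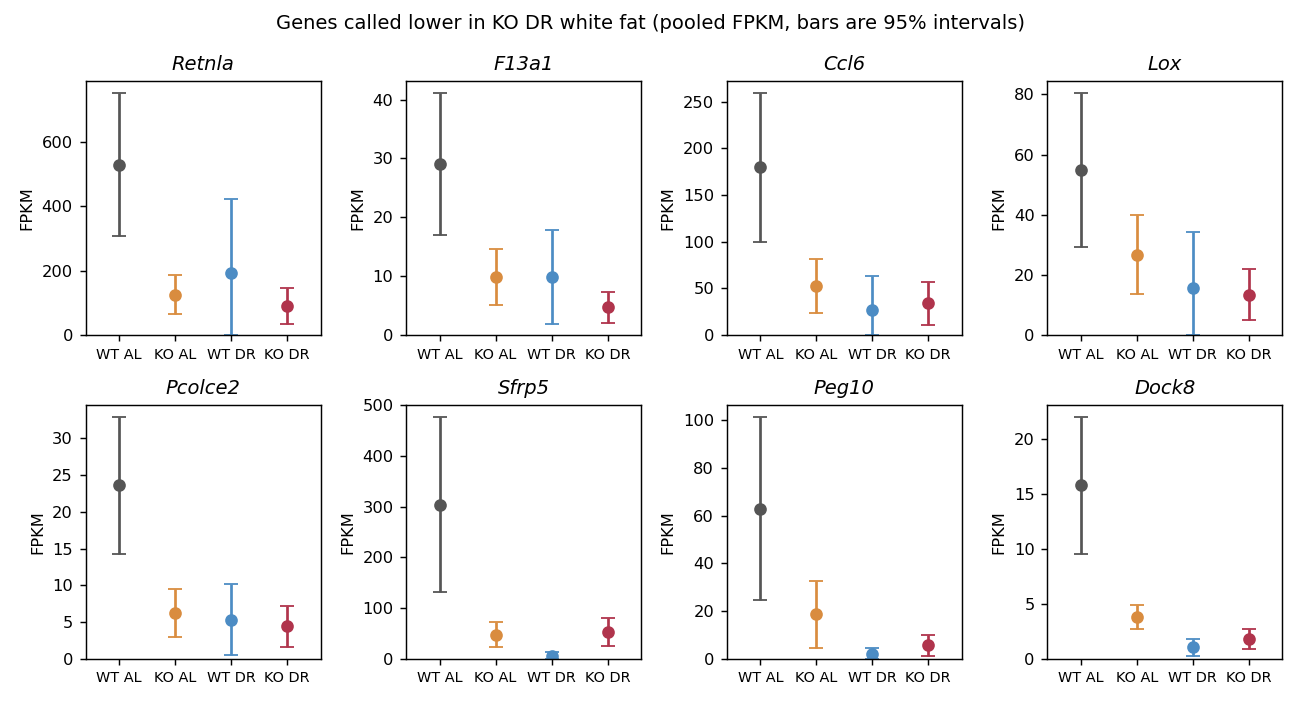
Pooled FPKM of 8 genes that were called lower in KO_DR white fat (y axes, FPKM, linear from 0) in the 4 fat groups, with the deposited 95% intervals as bars. WT_AL is the highest group for all 8, and Ccl6, Sfrp5, Peg10 and Dock8 are lower in WT_DR than in KO_DR.

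Sfrp5, a secreted Wnt inhibitor that rises as fat pads expand, was the called member of the fat expansion list, in which 12 of 16 genes had lower values and the median log2 difference was -0.95. It had 304 FPKM in WT_AL (interval 131 to 477), 47.7 in KO_AL, 6.26 in WT_DR and 52.1 in KO_DR (interval 24.5 to 79.7), a log2 difference of -2.54 ± 0.56. The log2 difference with diet was -5.60 ± 0.88 in wild-type fat and 0.13 ± 0.53 in knockout fat, and the interaction was called (5.73 ± 1.03). Npr3 (133 and 27.1 FPKM in WT_AL and KO_DR), Wisp2 (93.5 and 33.5), Bmp3 (45.98 and 16.03) and the imprinted gene Mest (391 and 143) were not called. The other 4 genes of the list had higher values, among them Dlk1 (1.32 and 8.99) and Wnt10b (0.814 and 2.59), and were not called either. Peg10, another imprinted gene, fell, with 63, 18.6, 2.11 and 5.598 FPKM in WT_AL, KO_AL, WT_DR and KO_DR (log2 -3.49 ± 0.74). Dock8, a guanine nucleotide exchange factor known from immune cells, fell as well, with 15.8, 3.81, 1.03 and 1.82 FPKM in the same order (log2 -3.12 ± 0.45). Both were highest in WT_AL, and WT_DR lay below KO_DR. Synpo2, an actin-binding protein of muscle cells, fell from 147 to 14.2 FPKM (log2 -3.37 ± 0.88). It is on the smooth muscle list, of which 10 genes passed the filter, 7 had a higher value, 2 fell (Mustn1, from 44.6 to 9.35 FPKM, is the other) and 0 rose, with a median log2 difference of 0.24. Hspb7, a small heat shock protein, fell from 25.7 to 4.07 (log2 -2.66 ± 0.59). The metal-binding metallothionein Mt2, singled out after its values were seen, fell from 431 to 93.6 FPKM (log2 -2.20 ± 0.66).

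Across the 4 fat groups, WT_AL stood at the outer end for most called entries. Of the 112 called higher, WT_AL was the lowest group in 87, or 77.7%, beside 41.1% of all tested entries higher in KO_DR. Of the 80 called lower, WT_AL was the highest group in 66, or 82.5%, beside 62.3% of all tested entries that were lower. KO_DR was the highest group in 52 of the first, or 46.4%, which is no more than the 49.0% of all tested entries higher in KO_DR. It was the lowest in 51 of the second, or 63.8%, beside 37.9% of all tested entries that were lower. These shares are descriptions, since the calls were made on WT_AL and KO_DR. With the same test, 199 entries were called between KO_AL and WT_AL (1.29%) and 85 between WT_DR and WT_AL (0.570%). Between KO_DR and KO_AL 110 were called (0.707%), and between KO_DR and WT_DR 42 (0.283%). These comparisons share groups with the main pair. The intervals were widest in WT_DR, with a median standard deviation of 62.3% of the FPKM beside 32.3% in WT_AL. Wide intervals make calls rarer, so these counts do not rank the groups by distance.

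Some calls involved genes of other tissues. Of the 112 entries called higher, 20 had at least 10 times as much FPKM in skeletal muscle as in fat (17.9%, beside 1.49% of all tested), and of the 80 called lower, 14 had at least 10 times as much in liver (17.5%, beside 2.70%). Without the entries at least 10-fold higher in liver, muscle or brain, 85 entries were called higher and 59 lower.

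Of 32 skeletal muscle markers, 30 passed the filter and 12 rose. Of the same markers 16 were at 1 FPKM or more in WT_AL and 30 in KO_DR, so many passed through KO_DR alone, and the count over those that passed carries no weight of its own. Myh4, the myosin heavy chain of the fastest fibres, had 0.0699 FPKM in WT_AL (interval 0 to 0.169), 55.04 in KO_AL, 20.6 in WT_DR and 30.3 in KO_DR (interval 14.7 to 45.8), a log2 difference of 8.76 ± 1.09. Muscle creatine kinase Ckm had 2.204, 148, 114 and 81.03 FPKM (log2 5.20 ± 0.68). Troponin I Tnni2 (1.54 and 50.2 FPKM in WT_AL and KO_DR), titin-cap Tcap (2.12 and 36.5) and Actn3 (1.46 and 23.2) rose as well, while the abundant skeletal actin Acta1 had 507 and 327 FPKM and was not called. The closely related genes Myh1, Myh2, Myh4 and Myh8 can share reads. As a share of the level in muscle of the same group, the markers had a median of 0.0708% in WT_AL fat, 0.988% in KO_AL, 0.233% in WT_DR and 0.477% in KO_DR. WT_AL fat thus had the lowest share and KO_AL the highest.

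Ovarian genes were high in KO_DR fat. The list was made after the values were seen and so carries no independent weight. Of its 26 genes 22 passed the filter and 9 were called, all higher. Among the 22, 18 had a higher value in KO_DR and 4 a lower value. On the list, 7 genes were at 1 FPKM or more in WT_AL and 23 in KO_DR. Inha, the inhibin alpha subunit of granulosa cells, had 0.454 FPKM in WT_AL, 1.54 in KO_AL, 0.754 in WT_DR and 164 in KO_DR (interval 0 to 462), a log2 difference of 8.50 ± 1.62. Cyp11a1, which makes the first steroid from cholesterol and shares its entry with Gm17322, had 0.506, 0.454, 0.168 and 543 FPKM in the same order (interval in KO_DR 0 to 2362, log2 10.07 ± 2.76). Star, which carries cholesterol into mitochondria, had 0.577 and 18.7 FPKM in WT_AL and KO_DR, Wnt4, a signal of the ovary and other organs, 0.126 and 12.5, and anti-Müllerian hormone Amh 0.117 and 10.2, all of which passed. Hsd3b1 was listed at 0 in the other 3 fat groups and at 335 FPKM in KO_DR. The summed level of the list was 117 FPKM in WT_AL, 75.1 in KO_AL, 76.4 in WT_DR and 1345 in KO_DR. Each ovarian gene named above was below 1 FPKM in WT_AL, so the sum there came mostly from other listed genes. Of 15 oocyte genes, 5, 6, 9 and 0 were listed at 0 in WT_AL, KO_AL, WT_DR and KO_DR, and 3 passed the filter with 0 called by the Wald test (0 at an unadjusted p below 0.05). Gdf9 had 0.552 and 3.02 FPKM in WT_AL and KO_DR, Zp3 0.0268 and 0.832 and Ooep 0.00713 and 0.856. Kit, which other cells also express, had 2.94 and 2.93. Of 10 adrenal genes 2 passed the filter and 1 was called, Akr1b7, which is also on the ovarian list, with 0.0456 and 3.09 FPKM. The adrenal enzymes Cyp11b1, Cyp11b2 and Cyp21a1 had 0.6, 0.0647 and 0.0495 FPKM in KO_DR. With pooled values it cannot be told how these levels divide among the 3 KO_DR libraries, and their part in the other differences of this pair was not tested.

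**Figure D5:**
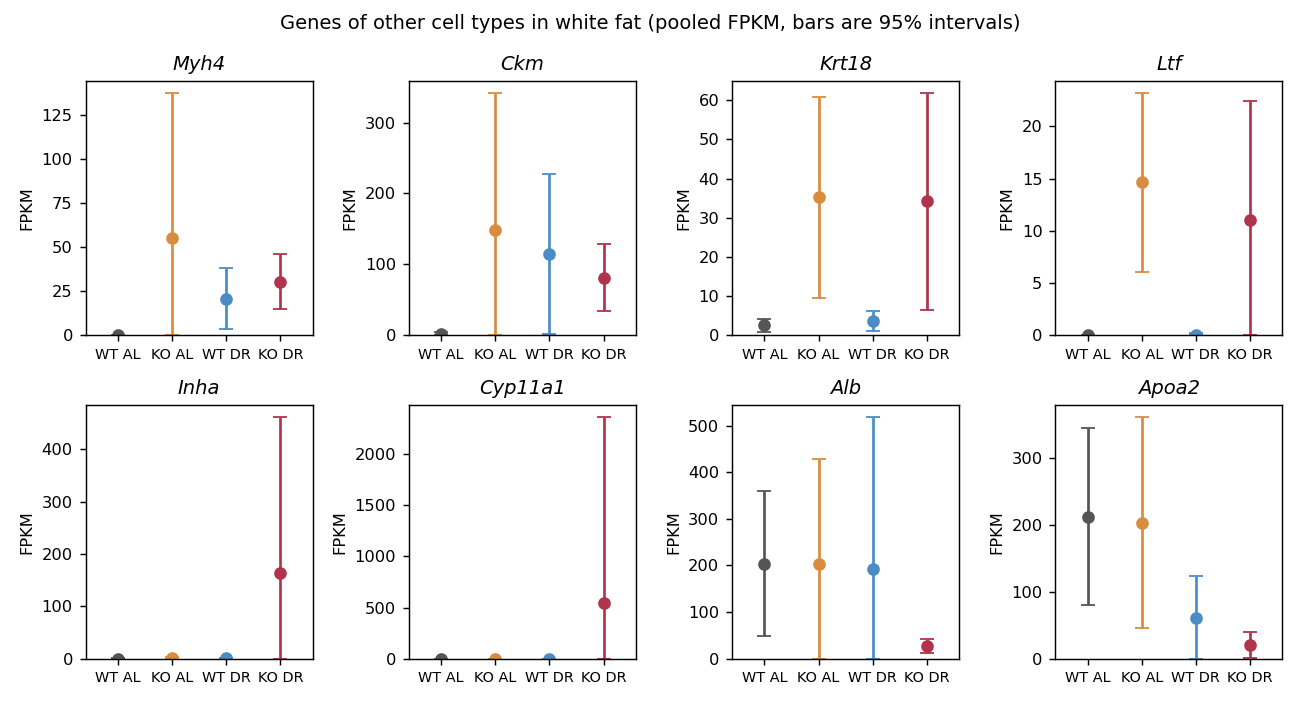
Pooled FPKM of 8 genes of skeletal muscle (Myh4, Ckm), epithelium (Krt18, Ltf), ovary (Inha, Cyp11a1) and liver (Alb, Apoa2) in the 4 fat groups (y axes, FPKM, linear from 0), with the deposited 95% intervals as bars. Muscle genes are lowest in WT_AL, epithelial genes are higher in both knockout groups than in both wild-type groups, ovarian genes are highest in KO_DR, and liver genes are lowest in KO_DR.

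Epithelial genes were higher in both knockout groups. Of 33 mammary and epithelial markers 19 passed the filter, 5 rose and 0 fell. Among the 19, 17 had a higher value in KO_DR and 2 a lower value. Of the 33 markers 10 were at 1 FPKM or more in WT_AL and 21 in KO_DR. Many thus passed through KO_DR alone, and these counts carry no weight of their own. Keratin 18 (Krt18) had 2.54 FPKM in WT_AL (interval 0.841 to 4.23), 35.3 in KO_AL, 3.61 in WT_DR and 34.2 in KO_DR (interval 6.54 to 61.9), a log2 difference of 3.75 ± 0.76. Its partner keratin Krt8 (2.57 and 17.8 FPKM in WT_AL and KO_DR), the adhesion molecule Epcam (0.255 and 5.31), lactoferrin Ltf (0.0129 and 11.1) and lipocalin 2 Lcn2 (2.38 and 38.01) rose too. The call of Lcn2 was lost without a minimum FPKM. Lcn2 is also on the acute phase and serpin list, where 12 of 18 genes that passed the filter had a lower value. The milk genes Wap and Csn1s1 were listed at 0 in all 4 fat groups. Of 15 oviduct and uterus genes 10 passed the filter, 2 rose and 1 fell. This count carries no weight of its own either, since 7 of these genes were at 1 FPKM or more in WT_AL and 12 in KO_DR. Those that rose were Ltf and the cilium gene Tekt1, from 0.544 to 6.85 FPKM (log2 3.65 ± 1.04). The homeobox gene Hoxa10 fell from 6.497 to 2.87 FPKM (log2 -1.18 ± 0.35), a call lost without a minimum FPKM and with standard deviations of at least 20% of the FPKM. The summed level of the epithelial list was 55.4 FPKM in WT_AL, 656 in KO_AL, 70.5 in WT_DR and 272 in KO_DR.

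Liver genes were lower in KO_DR fat. Of 13 liver markers that passed the filter 4 fell and 0 rose, and 13 were at 1 FPKM or more in WT_AL and 10 in KO_DR. The median log2 difference was -2.84. Albumin (Alb) had 204 FPKM in WT_AL (interval 47.9 to 359), 203 in KO_AL, 192 in WT_DR and 28.5 in KO_DR (interval 13.5 to 43.4), a log2 difference of -2.84 ± 0.67. Apoa2, an apolipoprotein of HDL, had 213 and 20.8 FPKM in WT_AL and KO_DR (log2 -3.35 ± 0.82), and Ahsg (49.4 and 7.73) and Serpina1a (25.1 and 3.25) were the other called members. Outside the list, Hpx (18.01 and 1.097) and Gc (10.2 and 0.4297), which carry haem and vitamin D in plasma, and Mat1a (6.55 and 0.383), which makes S-adenosylmethionine, fell too. As a share of the level in liver of the same group, the liver list had a median of 0.939% in WT_AL fat, 0.6304% in KO_AL, 0.366% in WT_DR and 0.064% in KO_DR. The part of muscle, epithelial or liver genes in the difference of any other gene was not tested.

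Antibody genes differed in both directions. Among 171 immunoglobulin variable segments that passed the filter 3 fell and 0 rose. Igkv12-89 had 268 and 5.78 FPKM in WT_AL and KO_DR (log2 -5.54 ± 1.54), and Ighv9-4 103 and 2.48. The constant gene Ighg1 rose, with 6.47, 185, 4.27 and 49.6 FPKM in WT_AL, KO_AL, WT_DR and KO_DR (log2 2.94 ± 0.68). Closely related variable segments can share reads, and with pooled values it cannot be told how many mice carry such a difference.

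The same pair of groups was compared in liver, muscle and brain, and the difference between tissues was tested gene by gene. Tissues of a mouse were treated as independent in these tests, since the pooled values carry no pairing. The log2 difference of Elovl6 was larger in fat than in liver by 5.26 ± 1.10 and than in brain by 5.62 ± 1.11, and both gaps passed the test. In liver Elovl6 had 7.62 and 9.302 FPKM in WT_AL and KO_DR, and in brain 7.72 and 7.31. In muscle its log2 difference was 3.37 ± 0.44, and the gap to fat of 2.17 ± 1.06 was not called. The log2 difference of Elovl3 was larger in fat than in liver, where it had 6.21 and 3.604 FPKM, by 7.69 ± 1.43, which passed. Pdp2 had 13.9 and 5.48 FPKM in liver, and its log2 difference was larger in fat by 2.68 ± 0.51, which passed. Across all entries, 12 differed between fat and liver (0.0790% of those tested), 31 between fat and muscle (0.198%) and 8 between fat and brain (0.0493%).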

How the data were processed

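Polyadenylated RNA of inguinal white fat from 5 libraries (2 WT_AL, 3 KO_DR) was compared, with 5 further fat libraries as context. Per the labels, processing used cutadapt (version 1.5) and Cuffdiff (version 2.2.1), and the study's methods name GRCm38. The authors deposited pooled FPKM values per group with 95% bounds. No counts were used here, so depth is unknown and precision is limited to the deposited intervals. A standard deviation was read as (upper bound - FPKM)/2, and errors of the log2 ratio followed by the delta method. Entries above 0 in both groups and at 1 FPKM or more in either were tested with no pseudocount by a two-sided Wald test. P-values were adjusted after Benjamini and Hochberg over all entries tested and called at an FDR of 10%. The interaction of genotype with diet and the differences from other tissues were tested likewise. The test was checked on simulated data whose standard deviations were known and smaller than the medians of the deposited ones. That check cannot show whether the deposited intervals were read rightly, and so does not bear on the calls. Analyses ran in Python 3.11.15 with numpy 2.4.6, scipy 1.17.1 and pandas 2.3.3; figures used matplotlib 3.10.9. Pseudogenes were aligned to coding transcripts with blastn.

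Of the table's entries 873 join several genes. Of those that met the rule, 272 were listed at 0 in a compared group (90 in KO_DR, 182 in WT_AL) and were not tested. Named genes were Irs1, the 15 called genes with the largest log2 difference in each direction at 1 FPKM or more in both groups, 5 in each direction among the rest, up to 8 called and the 4 most abundant genes per list, genes at 0 in a single group and at 5 FPKM or more in the other, and up to 8 genes of the interaction. Other genes were named after their values were seen. The members and lists were chosen with earlier results of these data known, and the lists of ovary, oocyte, adrenal, oviduct and kidney genes after the values of this comparison were seen. No kidney gene passed the filter. The libraries of a group come from separate mice, but p-values rest on the pooled intervals.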

Additional observations from a re-analysis of the deposited data

Results flagged for a closer look

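The diet effect differed between knockout and wild-type fat in 19 entries. Beside Tmem86a (log2 2.49) and Sfrp5 (5.73), those with the lowest p were Myh4 (-9.07), the entry that joins Gm24574 and Hnrnpa3 (7.51), the small RNA Snord13 (2.89), Hist1h4i (1.04), Gm20721 (1.29) and Gm23935 (-1.08). With standard deviations of at least 20% of the FPKM the last 3 were not called, and the first 5 were. Between KO_DR and WT_AL, 8 entries were tested with a standard error under 0.1, and 7 of them were called.

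The difference between KO_DR and WT_AL was tested between fat and each other tissue, and was unequal for 12 entries against liver, 31 against skeletal muscle and 8 against brain. Against liver the gap in log2 difference was 7.69 for Elovl3, 5.26 for Elovl6, 7.32 for Wnt4, 2.68 for Pdp2, 2.49 for Tmem86a, 2.77 for Hist1h4i, -3.39 for Dock8 and -7.63 for Cyp3a11. Against muscle it was 8.88 for Myh4, 8.33 for Inha, 5.03 for Wnt4, 4.33 for Tcap, 3.36 for Parm1, 1.21 for Pdp2 and 1.09 for Hist1h4i. It was negative against muscle for the liver genes Apoa2 (-5.71), Mat1a (-5.94), Ahsg (-5.33), Alb (-4.91) and Gc (-5.97). For Gm20721 it was -0.0912 ± 0.0048, although the change was nearly the same in both tissues. Gm20721 had 68.6 and 110.3 FPKM in WT_AL and KO_DR fat and 64.5 and 110.4 in muscle. Against brain the gap was 8.05 for Inha, 5.62 for Elovl6, 6.27 for Wnt4, 3.51 for Parm1 and 2.17 ± 0.054 for mt-Td. The calls of Gm20721, of Hist1h4i against muscle (1.09 ± 0.020) and of mt-Td rest on very narrow deposited intervals. In muscle, Alb had 5.52 and 23.3 FPKM in WT_AL and KO_DR, the opposite direction to fat. Inha had 2.78 and 3.12 FPKM in muscle and 14.01 and 19.1 in brain. These tests share the fat groups and are not independent of each other.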

How the results depend on the processing

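No paired analysis was possible because the values are pooled by group and the columns carry no replicate numbers, and for the same reason no library could be left out. Of the 192 calls (112 higher, 80 lower), the number moved most with how the spread was read. A t distribution left 2 (1 higher, 1 lower), and standard deviations divided by the square root of the number of libraries gave 1418 (683 higher, 735 lower). Both together, a choice made after seeing the data, gave 4 (3 higher, 1 lower). Intervals that do not overlap gave 277 entries, of which 185 were lower and 33.2% higher, and 156 were shared with the 192. A pseudocount of 1 gave 282 entries, of which 138 were lower. The other alternatives run kept the total between 144 and 252. With standard deviations divided by the square root of the number of libraries, 188 entries were called for the interaction, and 346, 263 and 275 for the differences from liver, muscle and brain. With standard deviations of at least 20% of the FPKM, chosen after seeing the data, these were 9 for the interaction and 17 for muscle. Leaving out entries under 300 bases (179 calls) and entries 10-fold higher in another tissue (144 calls) were also chosen after seeing the data. Median log2 differences of 47 lists kept their sign under the 7 alternatives run on them. They moved by more than the spread in 3, each with a pseudocount of 1, from 3.35 to 2.08 for skeletal muscle, from 4.76 to 2.01 for ovary and from 2.74 to 0.70 for adrenal genes. Of 78 named genes, the 77 called and Irs1, 0 reversed direction, but 76 lost the call with a t distribution, 74 with a t distribution and the divided standard deviations, and 11 with standard deviations of at least 20% of the FPKM. The cause of these moves was not tested. Depth is unknown, and for abundant genes the wide deposited intervals limit what can be detected.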

Other observations

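Clock genes gave 0 calls by the Wald test among 19 that passed the filter, with 5 at an unadjusted p below 0.05. Arntl, the activator of the clock, had 2.75 and 0.348 FPKM in WT_AL and KO_DR (log2 -2.98 ± 1.13), its target Dbp 14.1 and 81.6 (log2 2.53 ± 1.29) and Bhlhe40 5.04 and 30.1 (log2 2.58 ± 1.10). Globin genes were not called either: Hba-a1 had 2434 and 8023 FPKM (log2 1.72 ± 2.78), and the summed level of the red blood cell list was 6917 FPKM in WT_AL, 4334 in KO_AL, 12344 in WT_DR and 21111 in KO_DR. Their part in other differences was not tested.

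There were 70 entries listed at 0 FPKM in WT_AL and at 5 or more in KO_DR, of which 62 were small RNAs, predicted genes or antibody segments by name. The other 8 included Hsd3b1, the epithelial transcription factor Elf3 and Clca3, Fcgbp and Prap1. Another 45 entries were listed at 0 in KO_DR and at 5 or more in WT_AL, 44 of them small RNAs, predicted genes or segments by name.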
